A study of Homo sapiens with 647 samples.

Results

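FIIN-3, a covalent inhibitor of the FGF receptor kinases that also inhibits EGFR, was added to palbociclib and FGF2 in T47D cells carrying an FGFR1 transgene. The comparison was taken from the labels: 6 libraries of the FGFR1 line treated with Palbo+FGF2+FIIN-3 were set against 6 libraries of the same line treated with Palbo+FGF2. These are 12 of the 647 libraries of the series and of the 82 libraries of the FGFR1 line. T47D is an estrogen receptor positive, luminal human breast cancer line, and the FGFR1 line was made by infecting it with lentivirus carrying FGFR1 in the plasmid pLX307. Whether the line is 1 clone or a pool is not given in the sources used here, and neither is the dose of FGF2. All cells were plated for 48 h in 96-well plates and then treated for 24 h. Both groups received palbociclib at 1 µM together with FGF2, and the tested libraries also received FIIN-3 at 100 nM. Another group of 6 libraries of the line, Palbo, received palbociclib at 1 µM with neither FGF2 nor FIIN-3 and shows the level without ligand. The same 2 treatments are also used in T47D lines carrying FGFR2_WT, FGFR2_N550K or GFP, and in parental T47D cells. Lines carrying FGFR2_M538I or FGFR2_K660N received them too and are not used here. Libraries of the FGFR1 line without palbociclib enter at the end: FGF2 and FIIN-3+FGF2, and the same 2 on fulvestrant at 100 nM. A check with 1 fit over 6 treatments also used FIIN-3 alone, Fulv+Palbo+FGF2+FIIN-3 and Fulv+Palbo+FGF2+Tram, where Tram is trametinib at 500 nM. The comparison asks which genes of FGF2-treated cells held under a CDK4 and CDK6 inhibitor differ when FIIN-3 is present. Separate cultures are not stated for the 6 libraries of a group, so p-values measure only the spread between these libraries, which may be technical.

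FGF2 binds FGFR1, and the activated receptor phosphorylates the adaptor FRS2, which recruits GRB2, SOS and GAB1 and so switches on RAS, the ERK kinases and PI3K. ERK induces its own brakes: DUSP6 and DUSP4 are phosphatases that inactivate ERK, the Sprouty proteins SPRY1 and SPRY4 and the related SPRED2 block signalling upstream of RAF, and ETV4 is an ETS transcription factor induced by the pathway. Cyclin D1, encoded by CCND1, is the partner through which mitogens activate CDK4 and CDK6, the kinases that palbociclib blocks.

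The libraries were made with SMART-Seq2, a full-length cDNA method. Total gene counts were 2675168 to 3621018 with Palbo+FGF2+FIIN-3, 2384162 to 3208037 with Palbo+FGF2 and 2428774 to 3617207 with Palbo, so the groups were of like depth. Mitochondrially encoded genes took 27.6% to 31.4% of counts with Palbo+FGF2+FIIN-3, against 19.97% to 22.8% with Palbo+FGF2. The 2 ranges did not overlap. With the mitochondrially encoded genes left out, 1729 genes were called in the comparison below, in place of 1737, and 1704 of the calls were shared with no change of sign. With Palbo the share was 25.01% to 31.2%. Levels are given as CPM, read counts relative to library size, after scaling by the trimmed mean of M values. The FGFR1 transgene was read first: FGFR1 stood at 465, 1281 and 1385 CPM (lowest, median, highest) with Palbo+FGF2+FIIN-3 and at 1109, 1281 and 1394 CPM with Palbo+FGF2. It did not pass the test (log2 fold change -0.12 ± 0.20 SE, adjusted p = 0.72), and reads of the transgene and of the cells' own FGFR1 cannot be told apart. The luminal markers KRT8, KRT18, KRT19, EPCAM, CDH1, GATA3, FOXA1 and ESR1 were read in all 12 libraries, with FOXA1 lowest at 28.8 CPM. Of the fibroblast, blood cell and endothelial markers only the collagen gene COL1A1 passed the filter on low counts, at 13.3 to 30.7 CPM with Palbo+FGF2+FIIN-3 and 6.85 to 27.8 CPM with Palbo+FGF2, and its partner COL1A2 was at 0 in all 6 Palbo+FGF2+FIIN-3 libraries.

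One library stood apart. For each library, the deviations of 6592 genes from the median of the other 5 libraries of its group were taken on the log2 scale. Their SD was 0.942 in Palbo+FGF2+FIIN-3 replicate 5. It was 0.264 to 0.296 in the other 5 libraries of that group and 0.245 to 0.317 in the Palbo+FGF2 libraries. In replicate 5, genes with transcripts under 2000 bases had a median deviation of 1.00 (1193 genes). Genes with transcripts of 6000 bases or more had one of -0.46 (1181 genes). The lowest FGFR1 value above is also that of replicate 5. Its part in each result was measured by leaving it out, a choice made after seeing the data, and counts without it are given beside the lists and comparisons that it moved. Leaving it out also raised the share of all genes called in the comparison below, from 16.3% to 30.1% (14.4% higher and 15.7% lower). List counts without it are to be read beside those shares.

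FIIN-3 changed about 1 gene in 6. Of 10631 genes tested with edgeR's quasi-likelihood test and Benjamini-Hochberg adjustment, 1737 (16.3%) passed an adjusted p of 0.05. With Palbo+FGF2+FIIN-3, 940 genes (8.84%) were higher and 797 (7.5%) lower than with Palbo+FGF2. A change of at least 1 on the log2 scale was reached by 3.13% of the genes tested among the higher and 2.61% among the lower. These are bulk samples, in which fewer cells of a type and less RNA per cell cannot be told apart. In 1099 genes (10.3%) the CPM of the 2 groups did not overlap, with FIIN-3 the higher in 540 (5.08%) and the lower in 559 (5.26%). Without replicate 5 the count was 3244 of 10764 genes (30.1%), 1553 higher and 1691 lower, and 1714 of the 1737 calls were among them with no change of sign. On the authors' log2(TPM + 1) values, limma called 2109 genes, 427 higher and 1682 lower, so the share of calls that were higher was 20.2% there and 54.1% in the counts. The median of all genes was -0.18 on that scale and 0.04 in the counts.

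**Figure D1:**
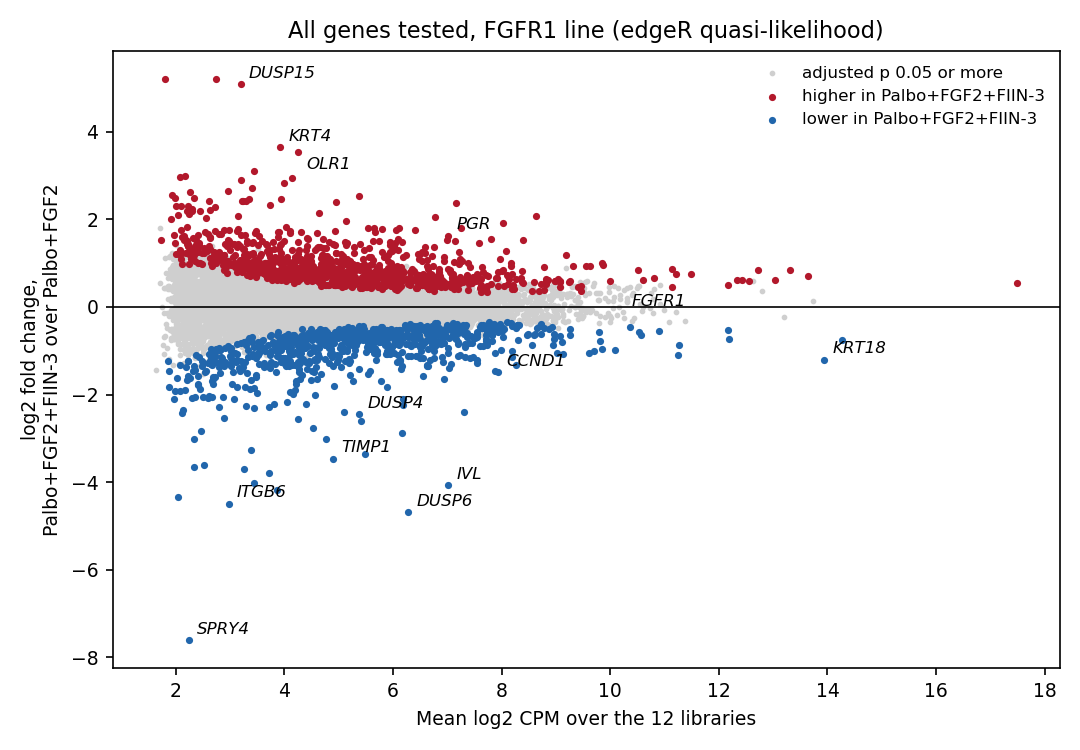
Each point is 1 of the 10631 genes tested in the FGFR1 line, with its mean log2 CPM over the 12 libraries on the horizontal axis and its log2 fold change, Palbo+FGF2+FIIN-3 over Palbo+FGF2, on the vertical axis; red and blue points passed an adjusted p of 0.05. DUSP6, IVL and SPRY4 lie at the bottom and DUSP15, KRT4 and OLR1 at the top, FGFR1 lies near 0, and the position of SPRY4, which had 0 reads in the Palbo+FGF2+FIIN-3 libraries, is fitted and is no measured fold.

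The promoters of DUSP6 and SPRY4 are shown because these ERK feedback genes are among those with the largest changes in the comparison. The stretches are the 250 bases before each gene's start in RefSeq on GRCh38.p14 (the authors' reads were aligned to hg19, per the submitters' processing notes, so these positions do not apply to their files). DUSP6 lies at chr12:89352502-89352751 on the minus strand and SPRY4 at chr5:142324248-142324497 on the minus strand, and both are written 5′ to 3′ along the gene. Capitals mark CGGAA, the core bound by ETS factors, on either strand.
DUSP6: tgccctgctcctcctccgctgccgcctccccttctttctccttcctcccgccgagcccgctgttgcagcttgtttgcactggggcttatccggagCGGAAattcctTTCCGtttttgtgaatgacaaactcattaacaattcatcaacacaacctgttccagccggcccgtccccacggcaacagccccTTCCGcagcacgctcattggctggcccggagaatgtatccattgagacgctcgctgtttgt
SPRY4: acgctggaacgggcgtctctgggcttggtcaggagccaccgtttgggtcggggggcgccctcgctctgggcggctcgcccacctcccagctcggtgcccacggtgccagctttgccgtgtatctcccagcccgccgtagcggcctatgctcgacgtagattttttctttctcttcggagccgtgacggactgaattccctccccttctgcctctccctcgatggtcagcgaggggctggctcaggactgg
The DUSP6 window holds 3 CGGAA matches, 1 on the gene's strand and 2 on the other, and the SPRY4 window holds 0. CGGAA on either strand is common: it occurs in 30.22% of the 34943 RefSeq promoters of the same length. A longer ETS site, CCGGAAG (8.48% of those promoters), the AP-1 site TGANTCA (6.59%), the cyclic AMP response element TGACGTCA (1.63%) and TGAATGNA, the octamer bound by CIC (3.23%), were also searched on both strands. None of these 4 was found in either window, which says only that these letters are not in these 250 bases.

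The ERK feedback and output genes fell together. Of 22 genes listed, 9 passed the filter on low counts; 7 were lower (7.5% of all genes tested were) and 0 higher, with a median log2 fold change of -1.65. DUSP6 stood at 3.41, 5.08 and 9.28 CPM (lowest, median, highest) with Palbo+FGF2+FIIN-3, at 117.2, 146.7 and 194.4 CPM with Palbo+FGF2 and at 2.19, 3.31 and 5.77 CPM with Palbo. Every FIIN-3 library was below every Palbo+FGF2 library and the highest Palbo library was above 4 of the 6 FIIN-3 libraries. The log2 fold change was -4.68 ± 0.21 (SE; adjusted p = 4.6e-11); exons of an antisense gene cover 39.4% of the exon bases of DUSP6 in GENCODE v29, and the sources used here do not say whether counting used strand.

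SPRY4 had 0 reads in all 6 Palbo+FGF2+FIIN-3 libraries and was read in all 6 Palbo+FGF2 libraries, where it stood at 5.83, 7.54 and 11.7 CPM. Set against 3 counts over the whole group, it was at least 48.0-fold lower (adjusted p = 4.7e-06). In the Palbo libraries it stood at 0 to 0.59 CPM. ETV4 had 5 reads in 2 of the 6 FIIN-3 libraries and 6.64 CPM over the pooled Palbo+FGF2 libraries (log2 fold change -4.35 ± 0.60, adjusted p = 5.0e-05). DUSP4 stood at 10.6, 12.4 and 15.7 CPM with Palbo+FGF2+FIIN-3, against 59.2, 67.9 and 86.6 CPM with Palbo+FGF2 (-2.45 ± 0.16, adjusted p = 8.0e-09). SPRED2 stood at 5.30, 9.64 and 12.9 CPM with Palbo+FGF2+FIIN-3, against 17.1, 30.4 and 42.7 CPM with Palbo+FGF2 (-1.65 ± 0.24, adjusted p = 9.4e-05). None of these genes overlapped between the 2 groups.

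CCND1 stood at 107.2, 129.5 and 142.5 CPM with Palbo+FGF2+FIIN-3, against 318.9, 368.1 and 412.6 CPM with Palbo+FGF2 and 82.2, 120.4 and 127.7 CPM with Palbo. The FIIN-3 and Palbo+FGF2 libraries did not overlap, and the gene fell by 1.5 on the log2 scale (SE 0.13, adjusted p = 2.0e-07). PHLDA1, a pleckstrin homology-like protein induced by growth factors, fell by 1.34 (SE 0.15, adjusted p = 4.8e-06). The remaining 2 members did not pass the test: SPRY1 gave -0.59 ± 0.29 (adjusted p = 0.18) and IER3, an immediate early gene, 0.07 ± 0.18 (adjusted p = 0.84), and in both the groups overlapped. The 13 members under the filter, among them DUSP5, SPRY2, ETV5 and EGR1, are not described. With SPRY4 placed at its bound of -5.58, the median of the list was still -1.65.

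**Figure D2:**
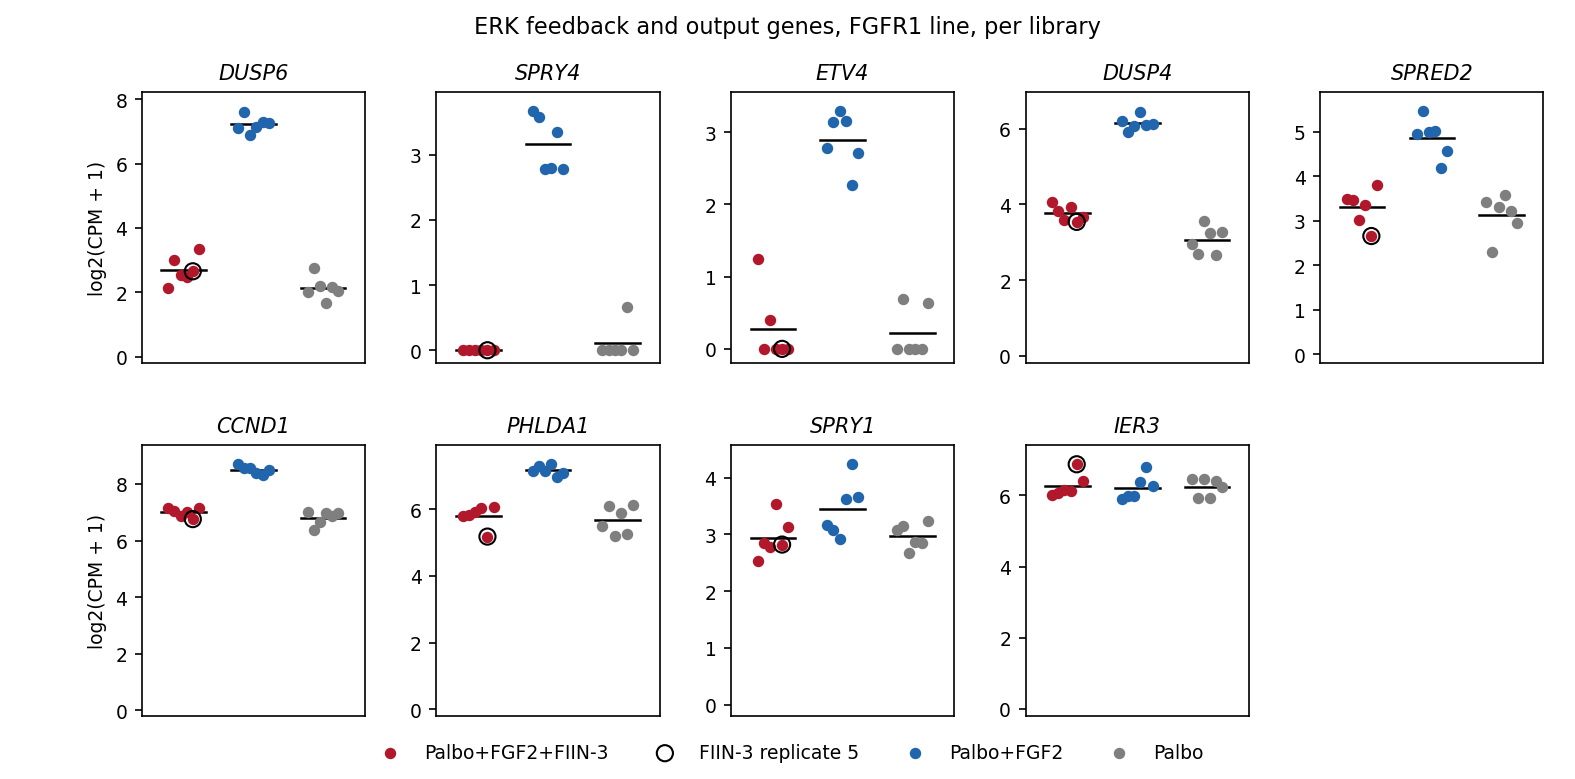
Points are single libraries of the FGFR1 line, 6 a group, on a log2(CPM + 1) axis that differs between panels; bars are group means, and the ring marks Palbo+FGF2+FIIN-3 replicate 5. In 7 of the 9 panels all Palbo+FGF2+FIIN-3 libraries lie below all Palbo+FGF2 libraries, and in the panels of SPRY1 and IER3 they overlap.

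The AP-1 and immediate early genes moved in both directions, 3 higher and 3 lower of 10 tested, with a median of 0.02. Among all genes tested 8.84% were higher and 7.5% lower. MYC, the proto-oncogene, stood at 40.2, 48.0 and 65.3 CPM with Palbo+FGF2+FIIN-3, against 14.5, 16.2 and 24.5 CPM with Palbo+FGF2, and rose by 1.49 ± 0.18 (adjusted p = 1.1e-05). FOSL2, a FOS-family subunit of AP-1, rose by 1.51 ± 0.26 (adjusted p = 0.00044) and ATF3, a stress-induced partner of JUN proteins, by 1.33 ± 0.30 (adjusted p = 0.0043). JUNB, another AP-1 subunit, fell by 1.27 (SE 0.18, adjusted p = 5.6e-05) and NR4A1, an orphan nuclear receptor, by 1.34 (SE 0.24, adjusted p = 0.00071). The groups did not overlap in MYC, FOSL2, JUNB or NR4A1 and did in ATF3. So the genes of this list split, with MYC and FOSL2 on one side and JUNB and NR4A1 on the other.

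Receptors and adaptors upstream of ERK also split. Of 12 FGF receptors, ligands and adaptors tested, 3 were higher and 3 lower (median -0.04), beside 8.84% and 7.5% of all genes tested. Without replicate 5 the list counts were 4 and 3. FGF12, an intracellular FGF-family protein that is not secreted and does not act through the receptors, stood at 12.3, 15.2 and 19.3 CPM with Palbo+FGF2+FIIN-3, against 0.78, 1.79 and 3.68 CPM with Palbo+FGF2 (2.90 ± 0.31, adjusted p = 2.4e-06). The adaptor genes GAB1 (-1.15 ± 0.19, adjusted p = 0.00036) and SHC1 (-0.86 ± 0.19, adjusted p = 0.004) fell. The other called members were the adaptor gene GRB2, which was lower, and the adaptor gene FRS2 and receptor gene FGFR2, which were higher. Of 8 ERBB receptors and ligands, 1 was higher and 1 lower. ERRFI1, an inhibitor of the EGFR kinase that is itself induced by ERK, stood at 11.4, 28.3 and 30.2 CPM with Palbo+FGF2+FIIN-3, against 114.7, 117.1 and 133.5 CPM with Palbo+FGF2 (-2.23 ± 0.18, adjusted p = 1.5e-07). LRIG1, which promotes degradation of ERBB receptors, rose by 1.74 ± 0.20 (adjusted p = 4.8e-06). These 2 inhibitors of the same receptor family thus changed in opposite directions, without overlap between the groups. Without replicate 5, 4 members of the ERBB list were higher and 2 lower, EGFR, ERBB3 and ERBB2 among the higher. Of all genes tested, 14.4% were higher and 15.7% lower in that fit.

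Among 10 insulin and IGF receptors and adaptors tested, 3 were higher and 3 lower (median -0.51), beside 8.84% and 7.5% of all genes tested. Without replicate 5 the list counts were 4 and 4. INSR, the insulin receptor, rose by 1.31 ± 0.36 (adjusted p = 0.017). PIK3R1, the regulatory subunit of PI3K, stood at 4.55, 9.93 and 12.8 CPM with Palbo+FGF2+FIIN-3, against 13.7, 24.3 and 31.4 CPM with Palbo+FGF2 and 14.3, 21.2 and 30.6 CPM with Palbo (-1.33 ± 0.25 against Palbo+FGF2, adjusted p = 0.00097). Its FIIN-3 libraries were below those of both other groups without overlap, but it did not pass the direct test against Palbo given below. Of 11 growth-arrest and FOXO-type genes tested, 4 were higher and 1 lower, with a median of 0.59 beside 0.04 for all genes. BTG1, an antiproliferative gene, stood at 90.4, 101.9 and 143.6 CPM with Palbo+FGF2+FIIN-3, against 22.4, 30.6 and 39.3 CPM with Palbo+FGF2 (1.81 ± 0.17, adjusted p = 6.5e-07). PIK3IP1, an inhibitor of PI3K, rose by 1.28 ± 0.24, BCL6, a transcriptional repressor, by 1.06 ± 0.15 and TOB1, a relative of BTG1, by 0.93 ± 0.18 (largest adjusted p = 0.0012). TXNIP, a thioredoxin inhibitor that limits glucose uptake, fell by 0.83 (SE 0.21, adjusted p = 0.0095). Without replicate 5, 7 were higher and 1 lower, beside 14.4% and 15.7% of all genes tested.

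Both groups were under palbociclib, and 8 of 38 proliferation genes were lower with FIIN-3, against 7.5% of all genes tested; the other 30 did not pass the test. Of 21 G1/S and DNA replication genes tested, 5 were lower and 0 higher (median -0.44), and of 17 G2/M and mitosis genes 3 were lower and 0 higher (median -0.36). CDC6, which loads the MCM helicase on replication origins, stood at 2.73, 4.74 and 7.73 CPM with Palbo+FGF2+FIIN-3, against 17.2, 21.7 and 28.3 CPM with Palbo+FGF2 and 7.19, 9.05 and 18.2 CPM with Palbo. The change against Palbo+FGF2 was -2.21 ± 0.25 (adjusted p = 5.7e-06), with no overlap. CDC45, a part of the active helicase, fell by 2.09 (SE 0.49, adjusted p = 0.0064) and MCM5, a helicase subunit, by 1.26 (SE 0.22, adjusted p = 0.00062). TTK, a kinase of the spindle checkpoint, fell by 1.32 (SE 0.31, adjusted p = 0.0069). CCNB2, a mitotic cyclin, fell by 0.92 (SE 0.24, adjusted p = 0.014) and CDC20, an activator of the anaphase-promoting complex, by 0.93 (SE 0.26, adjusted p = 0.02), both with overlapping libraries. Among 9 cyclins, CDKs and CDK inhibitors 1 was higher and 2 lower. CCND3, the gene of cyclin D3, fell by 1.21 (SE 0.17, adjusted p = 5.5e-05). Without replicate 5, 8 of the 21 replication genes were lower and 0 higher, while of 20 mitosis genes then tested 5 were lower and 1, the kinesin gene KIF20A, was higher. In that fit 15.7% of all genes tested were lower and 14.4% higher.

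The estrogen receptor gene rose, and its classic targets moved in both directions. ESR1 stood at 60.2, 86.9 and 130.6 CPM with Palbo+FGF2+FIIN-3, against 25.8, 34.8 and 40.8 CPM with Palbo+FGF2 and 72.8, 100.6 and 112.2 CPM with Palbo. Every FIIN-3 library was above every Palbo+FGF2 library (1.40 ± 0.19, adjusted p = 3.3e-05). PGR, the progesterone receptor, stood at 136.7, 201.4 and 238.3 CPM with Palbo+FGF2+FIIN-3, against 52.5, 63.7 and 77.02 CPM with Palbo+FGF2 (1.63 ± 0.15, adjusted p = 6.1e-07). Of 16 estrogen receptor targets tested, 5 were higher and 3 lower (median 0.17), or 6 and 4 without replicate 5. Of all genes tested, 8.84% were higher and 7.5% lower in the 12 libraries. The higher ones besides PGR were SERPINA6, encoding the cortisol carrier of blood (1.54 ± 0.23, adjusted p = 0.0001), the chemokine CXCL12 (1.46 ± 0.16, adjusted p = 2.4e-06), the scaffold gene PDZK1 (2.13 ± 0.50, adjusted p = 0.0065) and GREB1, an estrogen receptor cofactor (1.14 ± 0.19, adjusted p = 0.00029). The lower ones were CCND1, XBP1 and IGFBP4. CCND1, given above, belongs to this list as well as to the ERK list.

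Luminal identity genes split, 3 higher and 5 lower of 16 tested (median -0.13), beside 8.84% and 7.5% of all genes tested. SCUBE2, a secreted protein of luminal tumours, stood at 44.5, 70.5 and 101.2 CPM with Palbo+FGF2+FIIN-3, against 4.31, 13.8 and 16.6 CPM with Palbo+FGF2 (2.54 ± 0.26, adjusted p = 2.0e-06). BCAS1, a gene amplified in breast cancer, rose by 1.35 ± 0.18 (adjusted p = 2.5e-05). KRT18, a keratin of simple epithelia, stood at 7863, 8477 and 15352 CPM with Palbo+FGF2+FIIN-3, against 20491, 22456 and 23331 CPM with Palbo+FGF2 and 5906, 6844 and 7659 CPM with Palbo. It fell by 1.2 (SE 0.17, adjusted p = 6.0e-05) with no overlap; its highest FIIN-3 value is that of replicate 5, and it has near-identical pseudogenes among which reads can be split. AGR2, an endoplasmic reticulum disulfide isomerase, fell by 1.09 (SE 0.20, adjusted p = 0.00087) and KRT7, another simple keratin, by 0.88 (SE 0.13, adjusted p = 0.00012). Without replicate 5, 3 were higher and 9 lower, beside 14.4% and 15.7% of all genes tested.

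Of 8 basal, squamous and mesenchymal genes tested, 3 were higher and 4 lower, or 4 and 4 without replicate 5. The shares of all genes tested were 8.84% and 7.5%, or 14.4% and 15.7% without replicate 5. KRT4, a keratin of mucosal squamous epithelium, stood at 19.8, 26.2 and 36.5 CPM with Palbo+FGF2+FIIN-3, against 0, 1.94 and 4.63 CPM with Palbo+FGF2 and 11.9, 23.2 and 38.2 CPM with Palbo (3.65 ± 0.37 against Palbo+FGF2, adjusted p = 1.4e-06). IVL, encoding involucrin of the cornified envelope, stood at 4.77, 14.1 and 23.5 CPM with Palbo+FGF2+FIIN-3, against 192.5, 237.9 and 314.4 CPM with Palbo+FGF2 and 7.75, 12.6 and 14.6 CPM with Palbo (-4.08 ± 0.25, adjusted p = 5.5e-09). Both squamous genes therefore changed in opposite directions, each without overlap. KRT13, another mucosal keratin, rose by 2.1 ± 0.47 (adjusted p = 0.0043), while LAT2, a membrane adaptor known from B cells and mast cells, fell by 4.19 (SE 0.32, adjusted p = 7.8e-08) and ANXA1, a phospholipid-binding annexin, by 2.76 (SE 0.25, adjusted p = 4.4e-07).

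Protease, integrin and laminin genes fell: 6 of 9 tested were lower and 0 higher (median -0.70), or 7 and 0 without replicate 5. The share of all genes tested that were lower was 7.5% in the 12 libraries and 15.7% without replicate 5. ITGB6, the integrin chain that pairs with αV and activates TGF-β, stood at 0, 0.33 and 1.55 CPM with Palbo+FGF2+FIIN-3, against 9.89, 14.5 and 15.5 CPM with Palbo+FGF2 (-4.49 ± 0.48, adjusted p = 2.6e-06). LAMB3, a chain of laminin-332, the laminin of epithelial basement membrane, fell by 2.11 (SE 0.43, adjusted p = 0.0019). ITGA6, an integrin chain that binds laminin, fell by 1.37 (SE 0.29, adjusted p = 0.0026). The groups did not overlap in ITGB6, LAMB3 and ITGA6.

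**Figure D3:**
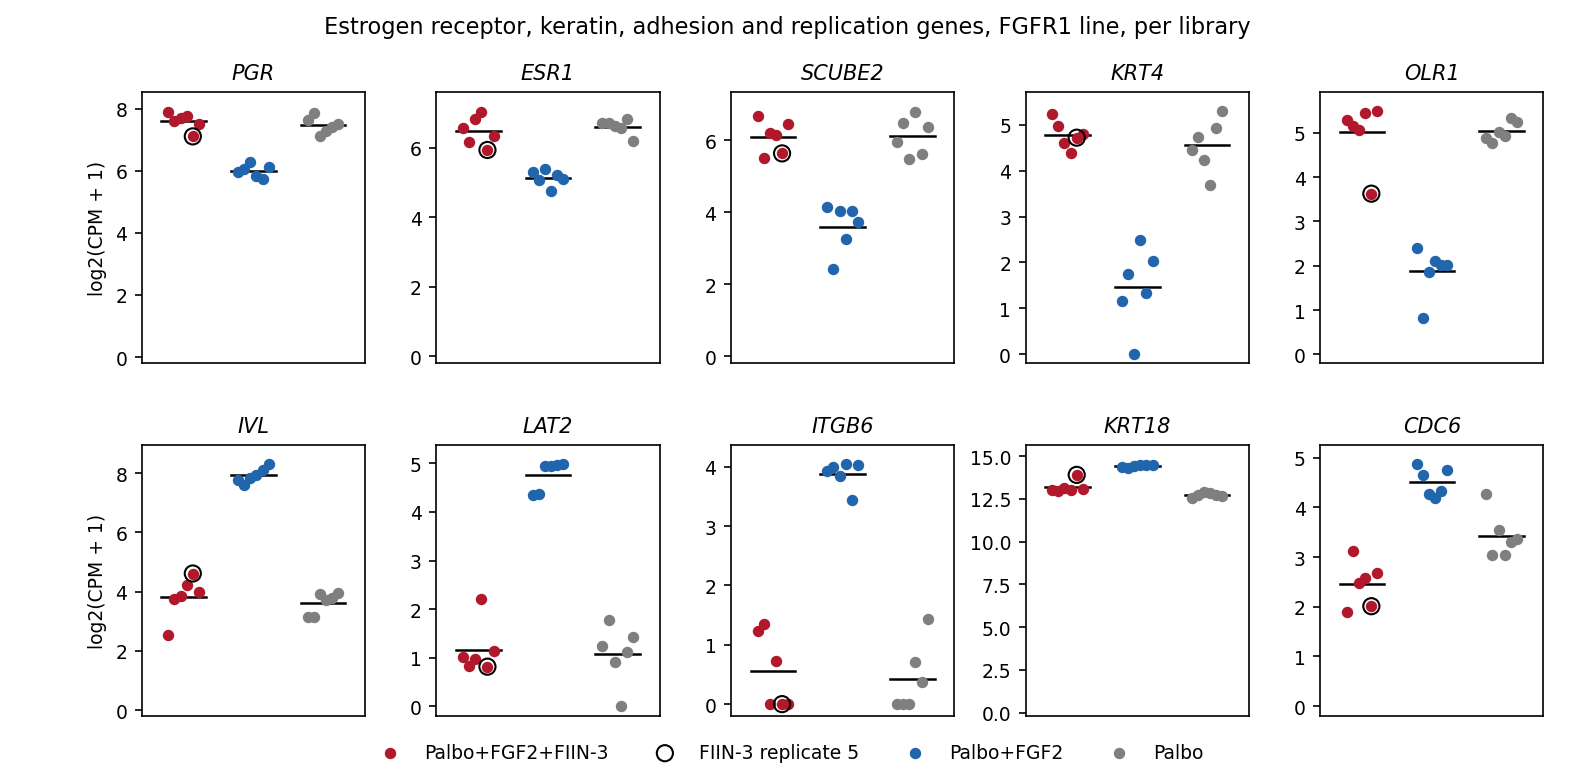
Points are single libraries of the FGFR1 line on a log2(CPM + 1) axis that differs between panels; bars are group means, and the ring marks Palbo+FGF2+FIIN-3 replicate 5. In each of the 10 panels the Palbo+FGF2+FIIN-3 and Palbo+FGF2 libraries do not overlap: PGR, ESR1, SCUBE2, KRT4 and OLR1 are higher and IVL, LAT2, ITGB6, KRT18 and CDC6 lower with FIIN-3.

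Among antigen presentation genes the count of lower members differed with and without replicate 5. In the 12 libraries 8.84% of all genes tested were higher and 7.5% lower. Of 10 MHC genes tested 3 were higher and 0 lower (median 0.50): PSMB9 (2.22 ± 0.46, adjusted p = 0.0026) and PSMB8 (1.16 ± 0.20, adjusted p = 0.00047), subunits of the immunoproteasome, and HLA-DMA, which loads peptides on MHC class II (1.18 ± 0.20, adjusted p = 0.00043). Without replicate 5 the same number were higher and 2, the MHC class I genes HLA-B and HLA-C, were lower, with a median of 0.30. In that fit 14.4% of all genes tested were higher and 15.7% lower. Of 10 interferon response genes tested 2 were higher and 0 lower (median 0.52). These were IFI6 and IRF9, both called in the 12 libraries but not in several settings that left out 1 library. MX1, an antiviral GTPase, stood at 5.30, 12.6 and 24.5 CPM with Palbo+FGF2+FIIN-3 and at 6.14, 7.15 and 13.8 CPM with Palbo+FGF2 and did not pass the test (0.72 ± 0.32, adjusted p = 0.13); without replicate 5, where 3 interferon genes were higher and 0 lower, it gave 0.88 ± 0.27 (adjusted p = 0.012).

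Metabolic lists moved in both directions. Their counts stand beside 8.84% of all genes tested higher and 7.5% lower in the 12 libraries. Without replicate 5 these shares were 14.4% and 15.7%. Of 13 glycolysis and hypoxia-inducible genes tested 6 were lower and 3 higher (median -0.56), or 7 and 3 without replicate 5. LDHA, which makes lactate, stood at 415, 445 and 837 CPM with Palbo+FGF2+FIIN-3, against 998, 1076 and 1102 CPM with Palbo+FGF2 (-1.06 ± 0.17, adjusted p = 0.0002). The glucose transporter SLC2A1 fell by 1.23 (SE 0.19, adjusted p = 0.00022), hexokinase HK2 by 1.24 (SE 0.19, adjusted p = 0.00019) and the prolyl hydroxylase EGLN3 by 1.46 (SE 0.29, adjusted p = 0.0019). ADM, the hormone adrenomedullin, rose by 1.43 ± 0.18 (adjusted p = 2.5e-05) and ALDOC, an aldolase, by 1.10 ± 0.21 (adjusted p = 0.0014). Of 11 ATF4 amino acid response genes 3 were higher and 3 lower, or 3 and 5 without replicate 5: SLC7A11, the cystine transporter, fell by 1.52 (SE 0.32, adjusted p = 0.0029) and TRIB3, a pseudokinase, by 0.83 (SE 0.13, adjusted p = 0.0002), while PHGDH, the first enzyme of serine synthesis, rose by 0.78 ± 0.15 (adjusted p = 0.0013) and ATF4 itself by 0.78 ± 0.19 (adjusted p = 0.0098). Of 16 cholesterol and fatty acid synthesis genes 3 were higher and 1 lower, or 5 and 2 without replicate 5. LSS, lanosterol synthase, was the higher one with the largest change (0.87 ± 0.15, adjusted p = 0.0006). Of 15 ribosome biogenesis genes 3 were lower and 0 higher, led by BOP1 (-1.07 ± 0.18, adjusted p = 0.00034) and RRS1 (-0.70 ± 0.16, adjusted p = 0.0058). Without replicate 5, 5 were lower and 2, WDR12 and FBL, were higher. Among 7 BCL2 family genes tested the lowest adjusted p was that of BAK1, a pore-forming member (-0.52 ± 0.18, adjusted p = 0.051), which without replicate 5 gave -0.56 ± 0.17 (adjusted p = 0.011).

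**Figure D4:**
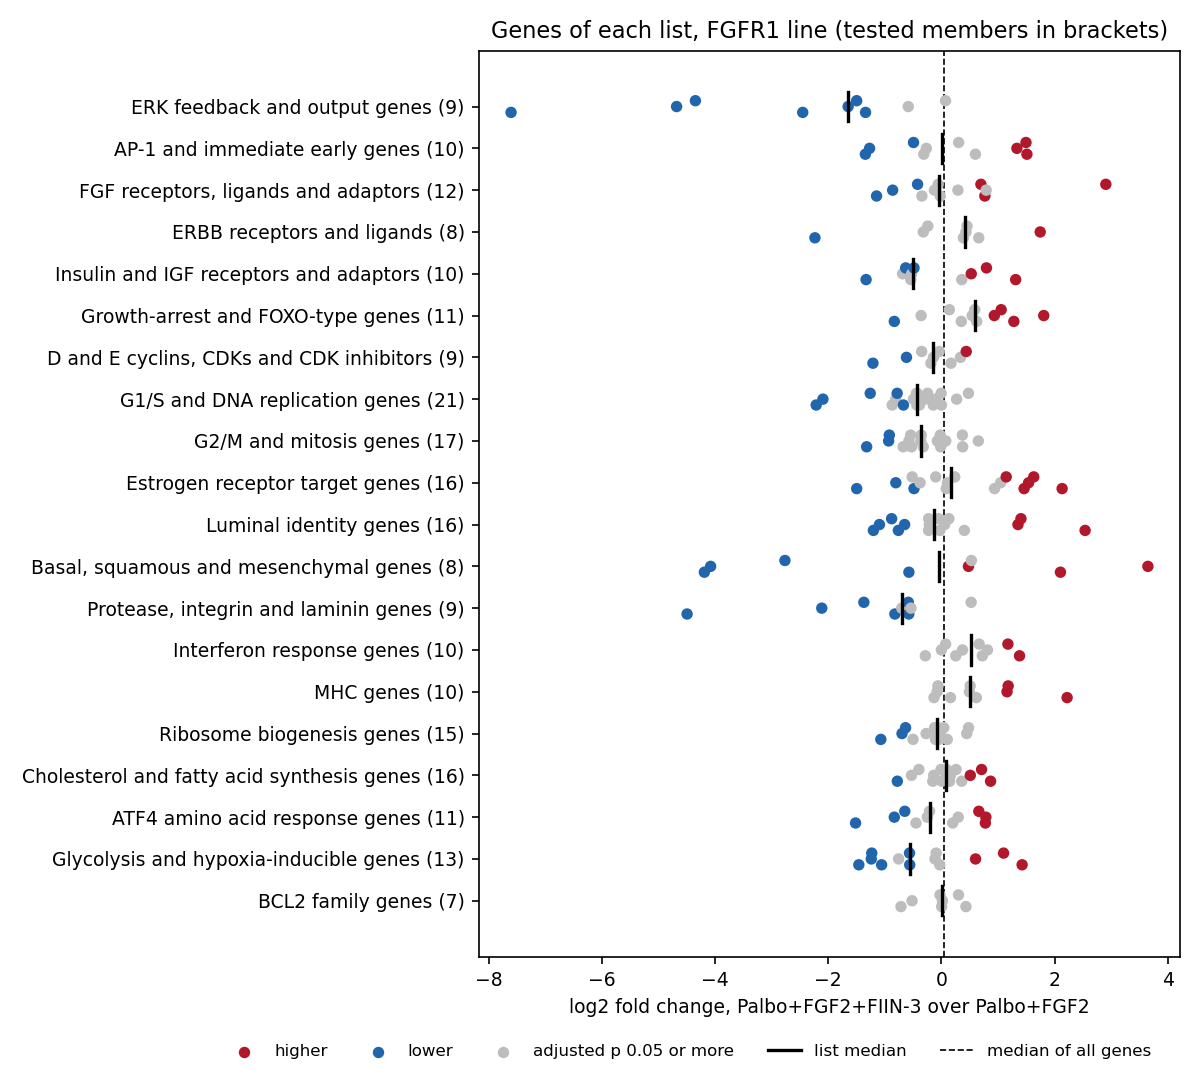
Each point is a tested member of a gene list, placed by its log2 fold change, Palbo+FGF2+FIIN-3 over Palbo+FGF2; red and blue points passed an adjusted p of 0.05, black bars are list medians and the dashed line is the median of all genes, 0.04. The ERK list lies furthest to the left with a median of -1.65, and the point at its far left is SPRY4, whose fitted value is no measured fold.

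The largest changes among protein-coding genes with a mean log2 CPM of at least 3 whose groups did not overlap were led by DUSP15 among the higher genes. DUSP15 encodes a small dual-specificity phosphatase; it stood at 9.41, 13.7 and 36.7 CPM with Palbo+FGF2+FIIN-3, against 0, 0.33 and 1.52 CPM with Palbo+FGF2 and 0, 1.19 and 2.70 CPM with Palbo. It rose by 5.08 ± 0.56 (adjusted p = 3.9e-06), and by 4.70 ± 0.48 without replicate 5, which holds its highest value. So 2 dual-specificity phosphatase genes, DUSP15 and DUSP6, stood at the 2 ends of this ranking; genes under that level, SPRY4 among them, are outside it. OLR1, a scavenger receptor for oxidized LDL, stood at 11.4, 36.5 and 43.7 CPM with Palbo+FGF2+FIIN-3, against 0.78, 3.06 and 4.31 CPM with Palbo+FGF2 (3.54 ± 0.33, adjusted p = 6.1e-07). TMEM52B, a membrane protein gene, rose by 3.11 ± 0.29, PLCE1, a phospholipase C regulated by RAS, by 2.95 ± 0.42, and SULF1, a sulfatase that trims the heparan sulfate chains FGF2 needs for receptor binding, by 2.72 ± 0.29 (largest adjusted p of the 3 = 6.7e-05). HMGB2, a chromatin protein with near-identical pseudogenes, rose by 2.83 ± 0.37 (adjusted p = 2.8e-05), SYBU, a kinesin adaptor, by 2.47 ± 0.30 and the orphan receptor gene GPR37L1 by 2.47 ± 0.24. KRT4, FGF12 and SCUBE2, given above, belong to the same 15 genes, as do PCP4, SUSD3 and MCEE.

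Among the 15 lower genes of the same ranking, with its minimum mean log2 CPM of 3, DUSP6, LAT2 and IVL had the largest changes; SPRY4, ITGB6 and ETV4, given above, lie under that level. MFSD2A, a transporter of lysophosphatidylcholine, stood at 0, 1.01 and 3.79 CPM with Palbo+FGF2+FIIN-3, against 13.6, 19.98 and 22.7 CPM with Palbo+FGF2 (-4.02 ± 0.46, adjusted p = 5.8e-06). CAPN8, a calpain protease, fell by 3.79 (SE 0.31) and DOK7, an adaptor known as the activator of the kinase MuSK in muscle, by 3.70 (SE 0.39). TIMP1, an inhibitor of matrix metalloproteinases, stood at 1.55, 4.98 and 7.19 CPM with Palbo+FGF2+FIIN-3, against 46.2, 52.4 and 68.1 CPM with Palbo+FGF2 (-3.46 ± 0.24, adjusted p = 1.9e-08). PHLDA2, an imprinted relative of PHLDA1, fell by 3.36 (SE 0.22), ACOX2, a peroxisomal oxidase of bile acid synthesis, by 3.02 (SE 0.29), the drug transporter gene ABCC3 by 2.87 (SE 0.20), the receptor gene VIPR1 by 2.62 (SE 0.23) and TNS4, a focal adhesion protein, by 2.56 (SE 0.28). The largest adjusted p of these 7 genes besides TIMP1 was 3.3e-06. The rest of the 15 were ATP8B3, ANXA1 and DUSP4.

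The Palbo libraries show where these levels lay without ligand. Palbo+FGF2 against Palbo uses the same Palbo+FGF2 libraries as the FIIN-3 comparison, so opposite signs in the 2 are tied by shared samples and the values are only set side by side. In that comparison 1375 genes were higher and 1274 lower of 10664 tested (24.8%). Of the 9 ERK genes tested there 7 were higher and 0 lower. DUSP6 gave -4.68 ± 0.21 for FIIN-3 against Palbo+FGF2 and 5.38 ± 0.18 for Palbo+FGF2 against Palbo; CCND1 gave -1.497 ± 0.13 and 1.68 ± 0.11, PGR 1.63 ± 0.15 and -1.49 ± 0.12, and KRT18 -1.202 ± 0.17 and 1.69 ± 0.08. Not every gene had a mirrored value: PIK3R1 gave -1.33 ± 0.25 for FIIN-3 and 0.07 ± 0.20 for FGF2 (adjusted p = 0.83), and ATF4 gave 0.78 ± 0.19 and -0.09 ± 0.12 (adjusted p = 0.62). Neither PIK3R1 nor ATF4 was among the 4 genes called against Palbo below. The highest ATF4 value with FIIN-3, 255.3 CPM, was that of replicate 5. Of 10 interferon response genes 8 were lower in Palbo+FGF2 than in Palbo, but Palbo replicate 4 stood apart in them, with MX1 at 938 CPM, against 6.76 to 33.03 CPM in the other 5 Palbo libraries.

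Set directly against Palbo, Palbo+FGF2+FIIN-3 left few differences. Of 10699 genes tested 4 (0.0374%) were higher and 0 lower, with 486 at an unadjusted p under 0.05. DESeq2 called 28 genes in the same libraries, and 35 were called without replicate 5, 29 higher and 6 lower. The 4 genes were DUSP15 (3.75 ± 0.48, adjusted p = 0.0032), SDSL, a serine dehydratase-like enzyme (1.24 ± 0.18, adjusted p = 0.013), TSC22D3, the glucocorticoid-induced leucine zipper gene (0.84 ± 0.14, adjusted p = 0.026), and PHYH, a peroxisomal enzyme of phytanic acid breakdown (0.75 ± 0.13, adjusted p = 0.041). All 4 were higher with Palbo+FGF2+FIIN-3 than with Palbo in every library pair. TSC22D3 stood at 81.7, 86.8 and 111.7 CPM with Palbo+FGF2+FIIN-3, against 24.7, 32.3 and 38.5 CPM with Palbo+FGF2 and 40.97, 52.3 and 55.3 CPM with Palbo. PHYH stood at 117.4, 128.96 and 147.7 CPM with Palbo+FGF2+FIIN-3, against 41.2, 53.3 and 71.8 CPM with Palbo+FGF2 and 62 to 85.3 CPM with Palbo. Genes that did not pass are not shown to have returned to the level without FGF2: DUSP4, at 10.6 to 15.7 CPM with FIIN-3 and 5.29 to 10.7 CPM with Palbo, gave 0.75 ± 0.23 (adjusted p = 0.64), and CDC6 gave -1.11 ± 0.32 (adjusted p = 0.49).

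The same 2 treatments in lines without a receptor transgene show the FIIN-3 difference on the cells' own receptors. In GFP and parental T47D cells, 10 Palbo+FGF2+FIIN-3 libraries against 9 Palbo+FGF2 libraries with line as a term, 498 genes were higher (4.31%) and 566 lower (4.9%) of 11550 tested (9.21% in all). The interaction tests whether the FIIN-3 difference itself differs between the FGFR1 line and these cells. It was called for 763 of 11977 genes (6.37%), and for 1356 of 11923 (11.4%) without replicate 5. In 410 of the 763 (3.42% of genes tested) the FIIN-3 difference was more positive in the FGFR1 line. DUSP6 changed by -4.68 ± 0.21 in the FGFR1 line, against -2.55 ± 0.21 in GFP and parental cells (interaction -2.16 ± 0.32, adjusted p = 1.2e-05). TNS4 fell by 2.56 (SE 0.28) in the FGFR1 line, against 0.19 ± 0.23 in GFP and parental cells (interaction -2.78 ± 0.34, adjusted p = 3.2e-07). The FIIN-3 difference was likewise more negative in the FGFR1 line for TIMP1 (interaction -2.70 ± 0.34), PHLDA2 (-2.49 ± 0.37), VIPR1 (-1.87 ± 0.30), MST1R, the receptor of macrophage-stimulating protein (-1.80 ± 0.22), and IVL (-1.76 ± 0.26), with a largest adjusted p of 3.1e-05. It was more positive for TMEM52B (2.77 ± 0.35), OLR1 (2.65 ± 0.35), SULF1 (2.44 ± 0.30), PLCE1 (2.24 ± 0.38), KRT4 (2.18 ± 0.38), FGF12 (2.12 ± 0.35) and GPR37L1 (1.89 ± 0.28), with a largest adjusted p of 0.00013.

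Differences between lines were also seen in the lists above. KRT18 changed by -1.202 ± 0.17 in the FGFR1 line, against 0.32 ± 0.06 in GFP and parental cells, where it passed the test in the other direction (interaction -1.55 ± 0.15, adjusted p = 1.6e-09). LDHA changed by -1.06 ± 0.17 in the FGFR1 line, against -0.01 ± 0.07 in GFP and parental cells (interaction -1.08 ± 0.16, adjusted p = 7.1e-06). PGR rose by 1.63 ± 0.15 in the FGFR1 line, against 0.47 ± 0.08 in GFP and parental cells (interaction 1.13 ± 0.16, adjusted p = 4.9e-06), and ESR1 by 1.40 ± 0.19 in the FGFR1 line, against 0.39 ± 0.09 in GFP and parental cells (interaction 0.99 ± 0.19, adjusted p = 0.0006). CCND1 fell by 1.5 (SE 0.13) in the FGFR1 line and by 1.10 (SE 0.07) in GFP and parental cells, with an interaction of -0.43 ± 0.13 (adjusted p = 0.042). Of the 1718 genes called in the FGFR1 line that were tested in both, 521 (30.3%) were called in the same direction in GFP and parental cells, which is 49.7% of the calls there, and 13 in the opposite direction. Without replicate 5 these were 698 genes, 21.7% of the FGFR1 calls and 66.3% of the calls in GFP and parental cells.

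**Figure D5:**
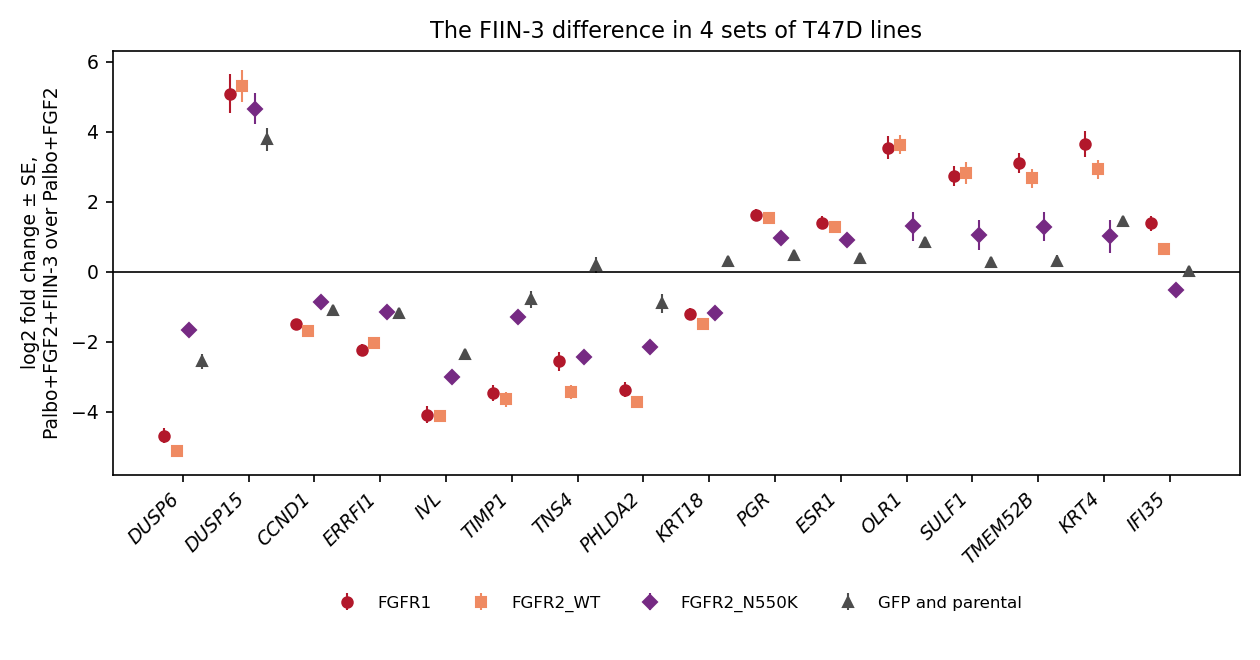
Points are log2 fold changes, Palbo+FGF2+FIIN-3 over Palbo+FGF2, with the standard error as bars, for 16 genes in the FGFR1, FGFR2_WT and FGFR2_N550K lines and in GFP and parental T47D cells together. The FGFR1 and FGFR2_WT points lie close together in most genes, while TNS4 and KRT18 in GFP and parental cells and IFI35 in FGFR2_N550K lie on the other side of 0 from the FGFR1 point.

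With wild-type FGFR2 in place of FGFR1, 1636 genes were higher and 1790 lower of 10616 tested (32.3%, 6 libraries against 6). Of 1711 genes called in the FGFR1 line and tested in both, 1444 (84.4%) were called in the same direction in the FGFR2_WT line, which is 42.6% of the calls there. Without replicate 5 these were 2360 genes, 74% of the FGFR1 calls and 69.5% of the FGFR2_WT calls. The interaction between the 2 lines was called for 1 of 11326 genes (0.00883%), and for 5 without the filter on low counts. That gene was FGFR2 itself, the transgene of the FGFR2_WT line (0.70 ± 0.21 in the FGFR1 line, against -0.32 ± 0.07 in the FGFR2_WT line, interaction 1.01 ± 0.18, adjusted p = 0.034). DUSP6 gave -4.68 ± 0.21 in the FGFR1 line and -5.11 ± 0.13 in the FGFR2_WT line.

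With FGFR2_N550K, a receptor whose kinase domain carries the named substitution, 1049 genes were higher (9.71%) and 1205 lower of 10804 tested (20.9% in all, 6 libraries against 5). The interaction with line was called for 78 of 11535 genes (0.676%), and for 2.33% of 11506 genes without replicate 5. Of the 78, the FIIN-3 difference was more positive in the FGFR1 line in 35 and more negative in 43. DUSP6 fell by 4.68 (SE 0.21) in the FGFR1 line, against 1.67 (SE 0.11) in FGFR2_N550K (interaction -3.00 ± 0.24, adjusted p = 5.5e-10). PHLDA1 gave -1.34 ± 0.15 in the FGFR1 line, against 0.02 ± 0.11 in FGFR2_N550K (interaction -1.36 ± 0.19, adjusted p = 4.8e-05), and TIMP1 -3.46 ± 0.24 in the FGFR1 line, against -1.30 ± 0.16 in FGFR2_N550K (interaction -2.16 ± 0.30, adjusted p = 4.8e-05). TM4SF18, a tetraspanin-like membrane protein, fell by 2.28 (SE 0.33) in the FGFR1 line, against 0.36 ± 0.25 in FGFR2_N550K (interaction -2.64 ± 0.41, adjusted p = 0.00022), and ITGB6 also had an interaction below 0 (-2.32 ± 0.53, adjusted p = 0.025). SPRY4 had one of -4.61 ± 1.12 (adjusted p = 0.043), whose size depends on the reads at 0 in the FGFR1 line. KRT4 rose by 3.65 ± 0.37 in the FGFR1 line, against 1.01 ± 0.47 in FGFR2_N550K (interaction 2.63 ± 0.64, adjusted p = 0.037).

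Some interferon and MHC genes also differed between these 2 lines. The interaction was above 0 and called for 4 of 18 interferon response genes and 2 of 12 MHC genes tested. It was below 0 and called for 0 of either list. Among all genes tested the shares were 0.303% and 0.373%. MX1 gave 0.72 ± 0.32 in the FGFR1 line (adjusted p = 0.13), against -2.11 ± 0.20 in FGFR2_N550K (interaction 2.83 ± 0.40, adjusted p = 6.1e-05). PSMB9 gave an interaction of 2.83 ± 0.52 (adjusted p = 0.0024), IRF9 one of 2.17 ± 0.41 (adjusted p = 0.0041) and IFI35, an interferon-induced leucine zipper protein, one of 1.89 ± 0.31 (adjusted p = 0.00047). Of 17 interferon response genes tested in FGFR2_N550K 13 were lower and 0 higher with FIIN-3, beside 11.2% and 9.71% of all genes tested there. Only 10 members passed the filter on low counts in the FGFR1 line, so the 2 counts rest on unlike sets. The filter keeps genes read in 1 group alone, and members high only with Palbo+FGF2 would enter as lower ones. How many did so was not tested. The interaction was called for 50 and 51 genes without FGFR2_N550K Palbo+FGF2 replicates 3 and 5.

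A pair of comparisons of the FGFR1 line without palbociclib, from the other set of libraries in the series, shares no library with the present one. These libraries were sequenced more deeply (medians of 8249856 and 7858128 counts for FIIN-3+FGF2 and FGF2). FIIN-3+FGF2 against FGF2 gave 2004 higher and 1880 lower genes of 12398 (31.3%), and Fulv+FGF2+FIIN-3 against Fulv+FGF2, on fulvestrant at 100 nM, 1793 higher and 1846 lower of 12236 (29.7%). Of the calls under palbociclib that were tested in both, 1289 (74.4%) were called in the same direction without it, which is 37.5% of the calls there, and 1260 (72.9%) on fulvestrant, 39.2% of the calls there. Without replicate 5 these were 1688 genes, 52.2% of the calls under palbociclib and 48.6% of those without it, and 1760 genes on fulvestrant, 54.5% and 54.3%. In both pairs 2 of the 6 libraries of each group carry title numbers from a run of 96 that the other group lacks. With run as a term, 1914 genes were higher and 2245 lower without palbociclib, 2934 of the 3884 calls among them, and 1824 higher and 2110 lower on fulvestrant, 2880 of the 3639 calls among them, with no change of sign. DUSP6 gave -4.68 ± 0.21 under palbociclib, -3.75 ± 0.21 without it and -4.49 ± 0.21 on fulvestrant, and DUSP15 gave 5.08 ± 0.56, 4.49 ± 0.36 and 4.57 ± 0.28. Mitosis genes read otherwise: 3 of 17 tested were lower under palbociclib, against 22 of 22 without it and 22 of 22 on fulvestrant, with medians of -0.36, -1.64 and -1.74. For G1/S and replication genes 5 of 21 were lower under palbociclib, against 20 of 27 without it and 27 of 27 on fulvestrant. The difference between these sets was not tested, and depth and the set of libraries moved with it.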

How the data were processed

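SMART-Seq2 libraries of T47D cells were aligned by the authors with STAR to hg19, per the submitters' processing notes; no counter, annotation or use of strand is named in the labels. The authors deposited raw counts per gene for all libraries and a second table that they gave as TPM, whose values are on a log2(TPM + 1) scale (back-transformed, each column used sums to 1000000). Here 102 columns of the count table and 18 of the log2 table were used; 545 and 629 columns were not used. Groups came from titles and characteristics. Genes passed edgeR's filterByExpr with a minimum count of 10, were scaled by TMM and tested with edgeR 4.0.16 (glmQLFit, glmQLFTest, R 4.3.3) on the libraries compared alone, with Benjamini-Hochberg adjustment over all genes tested and a threshold of 0.05; interactions added line and treatment by line. SE is the log2 fold change over the root of F. CPM values in the text were scaled over the 18 FGFR1 libraries of the 3 groups. Alternatives used DESeq2 1.42.0 and limma 3.58.1.

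Named were FGFR1; the 15 protein-coding genes in each direction that changed most among called genes with mean log2 CPM of at least 3 and groups not overlapping; up to 6 called members of each of 21 gene lists; all tested ERK feedback members; and up to 8 genes per direction in each interaction and against Palbo. XBP1, BAK1, EGFR, ERBB2, ERBB3, KIF20A, HLA-B, HLA-C, WDR12, FBL, PGR, ESR1, KRT18, LDHA and CCND1 in the interactions, the marker genes for the cell type check, MX1 in the FGFR1 line and the genes set against Palbo besides those called were chosen after their values were seen. Some genes that the rule names are not reported here. The members and lists were chosen with earlier results of these data known. Replicates of a group were checked to differ beyond counting noise. In simulated counts for this comparison on 10631 genes, 43 of 50 genes changed by -2, 30 of 50 changed by -1, 36 of 50 changed by 1 and 49 of 50 changed by 2 on the log2 scale were recovered, and 8 unchanged genes were called. Exons of another gene cover at least 20% of the exon bases of 5 of the 97 genes checked (DUSP6, IRF9, KRT13, ITGB6, IER3; GENCODE v29), so their reads may be shared.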

Additional observations from a re-analysis of the deposited data

Results flagged for a closer look

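Among the groups of 6 values looked at (97 genes of the text and 3 measures of a library's deviation), 39 held a library set off from the others by a wide gap; chance gives about 1 in 20. In 20 genes that library was Palbo+FGF2+FIIN-3 replicate 5, high in 10 and low in 10. It was high for KRT18 (15352 CPM), AGR2 (2970 CPM), KRT7 (351.5 CPM), HLA-DMA (143.2 CPM), ATF4 (255.3 CPM), LDHA (837.4 CPM), DUSP15 (36.74 CPM), HMGB2 (66.66 CPM), SDSL (153.4 CPM) and TSC22D3 (111.7 CPM). It was low for FGFR1 (465.1 CPM), PHLDA1 (35.22 CPM), SHC1 (65.15 CPM), ERRFI1 (11.36 CPM), TXNIP (31.06 CPM), CXCL12 (59.09 CPM), ITGA6 (2.27 CPM), LSS (78.78 CPM), OLR1 (11.36 CPM) and SYBU (10.61 CPM). The same library had the SD of deviations of 0.942, the median deviation of 1.002 in short transcripts and of -0.456 in long ones.

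Other Palbo+FGF2+FIIN-3 libraries set off were replicate 1 for ETV4 (1.36 CPM) and IRF9 (12.95 CPM) and replicate 4 for LAT2 (3.63 CPM). Among Palbo+FGF2 libraries, replicate 1 was high for MX1 (13.85 CPM) and replicate 4 for IFI35 (16.86 CPM); replicate 2 was low for MCM5 (15.29 CPM), OLR1 (0.78 CPM) and DOK7 (10.19 CPM), replicate 4 for MFSD2A (13.56 CPM), replicate 5 for SHC1 (238.6 CPM) and ITGB6 (9.89 CPM) and replicate 6 for JUNB (38.99 CPM). Among Palbo libraries, replicate 4 was high for MX1 (938.4 CPM) and replicate 5 for SPRY4 (0.59 CPM), and replicate 3 had an SD of deviations of 0.448 with a median deviation of 0.356 in short transcripts.

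The FIIN-3 difference differed between lines, by the interaction term, in 31 named cases, all with adjusted p below 0.05. Only these 31 were looked at. They were named for passing or after their values were seen, so their number is no result. Among all genes tested the interaction was called for 6.37% against GFP and parental cells, 0.676% against FGFR2_N550K and 0.00883% against FGFR2_WT. Against GFP and parental cells the interaction on the log2 scale was -2.16 for DUSP6, -0.43 for CCND1, 2.12 for FGF12, 1.13 for PGR, 0.99 for ESR1, -1.55 for KRT18, 2.18 for KRT4, -1.76 for IVL, -1.08 for LDHA, 2.65 for OLR1, 2.77 for TMEM52B, 2.24 for PLCE1, 2.44 for SULF1, 1.89 for GPR37L1, -2.70 for TIMP1, -2.49 for PHLDA2, -1.87 for VIPR1, -2.78 for TNS4 and -1.80 for MST1R. Against FGFR2_N550K it was -3.00 for DUSP6, -4.61 for SPRY4, -1.36 for PHLDA1, 2.63 for KRT4, -2.32 for ITGB6, 2.17 for IRF9, 2.83 for MX1, 1.89 for IFI35, 2.83 for PSMB9, -2.16 for TIMP1 and -2.64 for TM4SF18. Against FGFR2_WT it was 1.01 for FGFR2.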

How the results depend on the processing

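For Palbo+FGF2+FIIN-3 against Palbo+FGF2, the 1737 calls were 1723 with DESeq2 size factors, 1761 without the filter on low counts, 2154 in DESeq2, 1729 without mitochondrial genes, 2209 in 1 fit over 6 treatments and 1320 to 3244 when each library was left out in turn. The top of that range, 3244, came without Palbo+FGF2+FIIN-3 replicate 5; the other 11 gave 1320 to 1537, fewer libraries by construction. The share of calls that were higher was 20.2% in limma on log2(TPM + 1), against 54.1% in the counts, and 47.9% to 54.7% elsewhere; the cause was not tested, and no call in any of these settings changed sign. For Palbo+FGF2+FIIN-3 against Palbo the 4 calls were 63 without the filter, 28 in DESeq2 and 35 without replicate 5. As a share of genes tested, interactions with GFP and parental cells were 6.37%, and 5.27% to 11.4% when each library was left out, the top without FGFR1 replicate 5; those with FGFR2_WT 0.00883% and 0.0163% without the filter, and those with FGFR2_N550K 0.676%, 0.43% without the filter (of more genes), 1.27% in DESeq2 and 0.426% to 2.33% when each library was left out, with 2.33% without FGFR1 replicate 5 and 0.426% and 0.435% without FGFR2_N550K Palbo+FGF2 replicates 3 and 5. No library had MT-RNR2 under 5% of counts, so leaving out such libraries gave no value. Title numbers run in blocks of 96. Deviations of same-block libraries correlated between the groups at r of 0.198, 0.230 and -0.017. Whether the libraries of a block share more than a run of numbers was not tested. With the replicate block as a term there were 1884 calls, 1707 of them among the 1737. Of the genes named as changed against Palbo+FGF2, FRS2 and GRB2 left aside, IFI6, IRF9, FGFR2 and LSS lost the call under at least 1 setting. Depth limits genes of few reads: 13 of 22 ERK feedback genes were not tested.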
